A study of Homo sapiens with 12 samples.

Results

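Chromatin accessibility was examined around 6 genes that are used as markers of cancer stem cells, CD44, PROM1, ALDH1A1, ALDH1A3, SOX9 and SOX4, out of 20046 protein-coding genes of the annotation. All 6 are commonly used stem cell markers, and each was followed over its gene body with 100 kb on either side (GRCh38/hg38, GENCODE v44). These windows held 75 of 79177 accessible regions in DU-145 cells and 43 of 46298 in BT-549 cells. The 12 ATAC-seq libraries came from DU-145, a human castration-resistant prostate cancer (CRPC) line, and BT-549, a human triple-negative breast cancer (TNBC) line. In both lines and in all 4 groups the cells carried tet-MUC1shRNA, a doxycycline-inducible short hairpin against MUC1, and were kept for 7 days either with doxycycline (DOX) or with 0.1% DMSO as vehicle. Each group had 3 replicate libraries, each from 50000 cells. One label field calls the vehicle cells "Untreated" where another names DMSO. No line with a control hairpin was analysed here, so doxycycline itself and silencing of MUC1 cannot be told apart, and the p-values measure the spread between these libraries, which the study's methods describe as independent biological replicates.

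Cancer stem cells are tumour cells able to renew themselves and to seed new growth. CD44, the surface receptor for hyaluronan, and PROM1 (CD133), a pentaspan membrane glycoprotein, are the surface antigens most often used to sort them, whereas the ALDEFLUOR assay detects cytosolic aldehyde dehydrogenases such as ALDH1A1 and ALDH1A3, which oxidise retinaldehyde to retinoic acid. SOX9 and SOX4 are HMG-box transcription factors of progenitor and tumour cells. ATAC-seq uses a transposase that cuts open chromatin, so that promoters in use and active enhancers gather fragments, and an accessible distal region can act on a gene other than the nearest one.

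The summed values of the libraries ran from 12370094 to 25232000 in DU-145, from 9142900 to 13606129 in vehicle BT-549 and from 2502510 to 3267024 in DOX BT-549, so that values of the DOX BT-549 libraries rest on the fewest fragments. In DU-145 all 7 epithelial markers had an accessible promoter and the mesenchymal markers CDH2 and TWIST1 had none, whereas in BT-549 all 7 mesenchymal markers and 3 of 7 epithelial markers had one, with no region at CDH1, EPCAM, KRT8 or KRT18. Prostate luminal KLK2 and KLK3 had no promoter region in either line, and ESR1 and PGR had none in BT-549. A missing region is not a missing peak. Vehicle BT-549 libraries had a promoter peak at EPCAM (3 libraries), at CDH1, KRT8, KRT18 and PGR (2 each) and at ESR1 (1). Of 4 blood cell markers, PTPRC alone had a region, in DU-145, at 0.216, 1.10 and 1.36 CPM with vehicle and 4.97, 5.17 and 6.90 CPM with DOX. The promoter of MUC1, the hairpin's target, held 89.0, 96.9 and 87.3 CPM with vehicle and 76.9, 84.3 and 81.5 CPM with DOX in DU-145 (log2 difference -0.17, edgeR adjusted p = 0.0534), and the difference in BT-549 was 0.02. A hairpin acts on the transcript, so these promoter values check no silencing.

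An accessible region is here a run of adjacent 100 bp bins listed in the authors' table of a line, and its level is given in CPM, the region's summed bin values divided by the library's sum and multiplied by 1000000. The authors listed bins only where at least 3 libraries of the line had a peak, whatever the condition. A region with peaks in 1 condition only is thus listed only because all 3 libraries of that condition had one. Peak counts of such regions add no support to their differences, which the same rule favours. Every BT-549 region of the 6 windows had a peak in all 3 vehicle libraries. A region was called opening or closing where it differed at least 2-fold at an edgeR adjusted p below 1e-05 in DU-145 and below 0.01 in BT-549. It rose or fell where the adjusted p was below 0.05 whatever the fold. The opening and closing cutoffs are the study's, but the study applied them to DESeq2 tests of single 100 bp bins. Test and unit differ here, so the counts are not comparable to those of the study. Log2 differences are DOX minus vehicle, and values are listed in the order of replicates 1, 2 and 3.

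In DU-145 the marker gene windows held 10 opening and 2 closing regions of 75, 13.3% and 2.67%, where 14.1% of all 79177 regions opened and 3.26% closed. With no fold limit 33 of the 75 rose and 8 fell, which is 44% and 10.7% of them against 37.1% and 17.4% of all regions. In BT-549 2 of 43 regions opened and 3 closed, 4.65% and 6.98% against 3.75% and 8.62% of all regions, and 6 rose and 6 fell, 14.0% each against 12.2% and 18.0%. Opening and closing around these genes was therefore about as frequent as in the rest of the genome. The median log2 difference was 0.46 over the 75 regions and 0.24 over all regions in DU-145, and -0.07 against -0.10 in BT-549. Size factors from the region medians (RLE) set the median of all DU-145 regions to -0.004 and left 6 opening and 3 closing regions, and moved the share of all opening calls among opening and closing ones from 81.2% to 68.4% in DU-145 and from 30.3% to 39.9% in BT-549. Leaving out vehicle replicate 2 left 6 opening regions in DU-145. In BT-549 no closing region was left without vehicle replicate 1, and 1 was left without vehicle replicate 2 or 3.

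**Figure D1:**
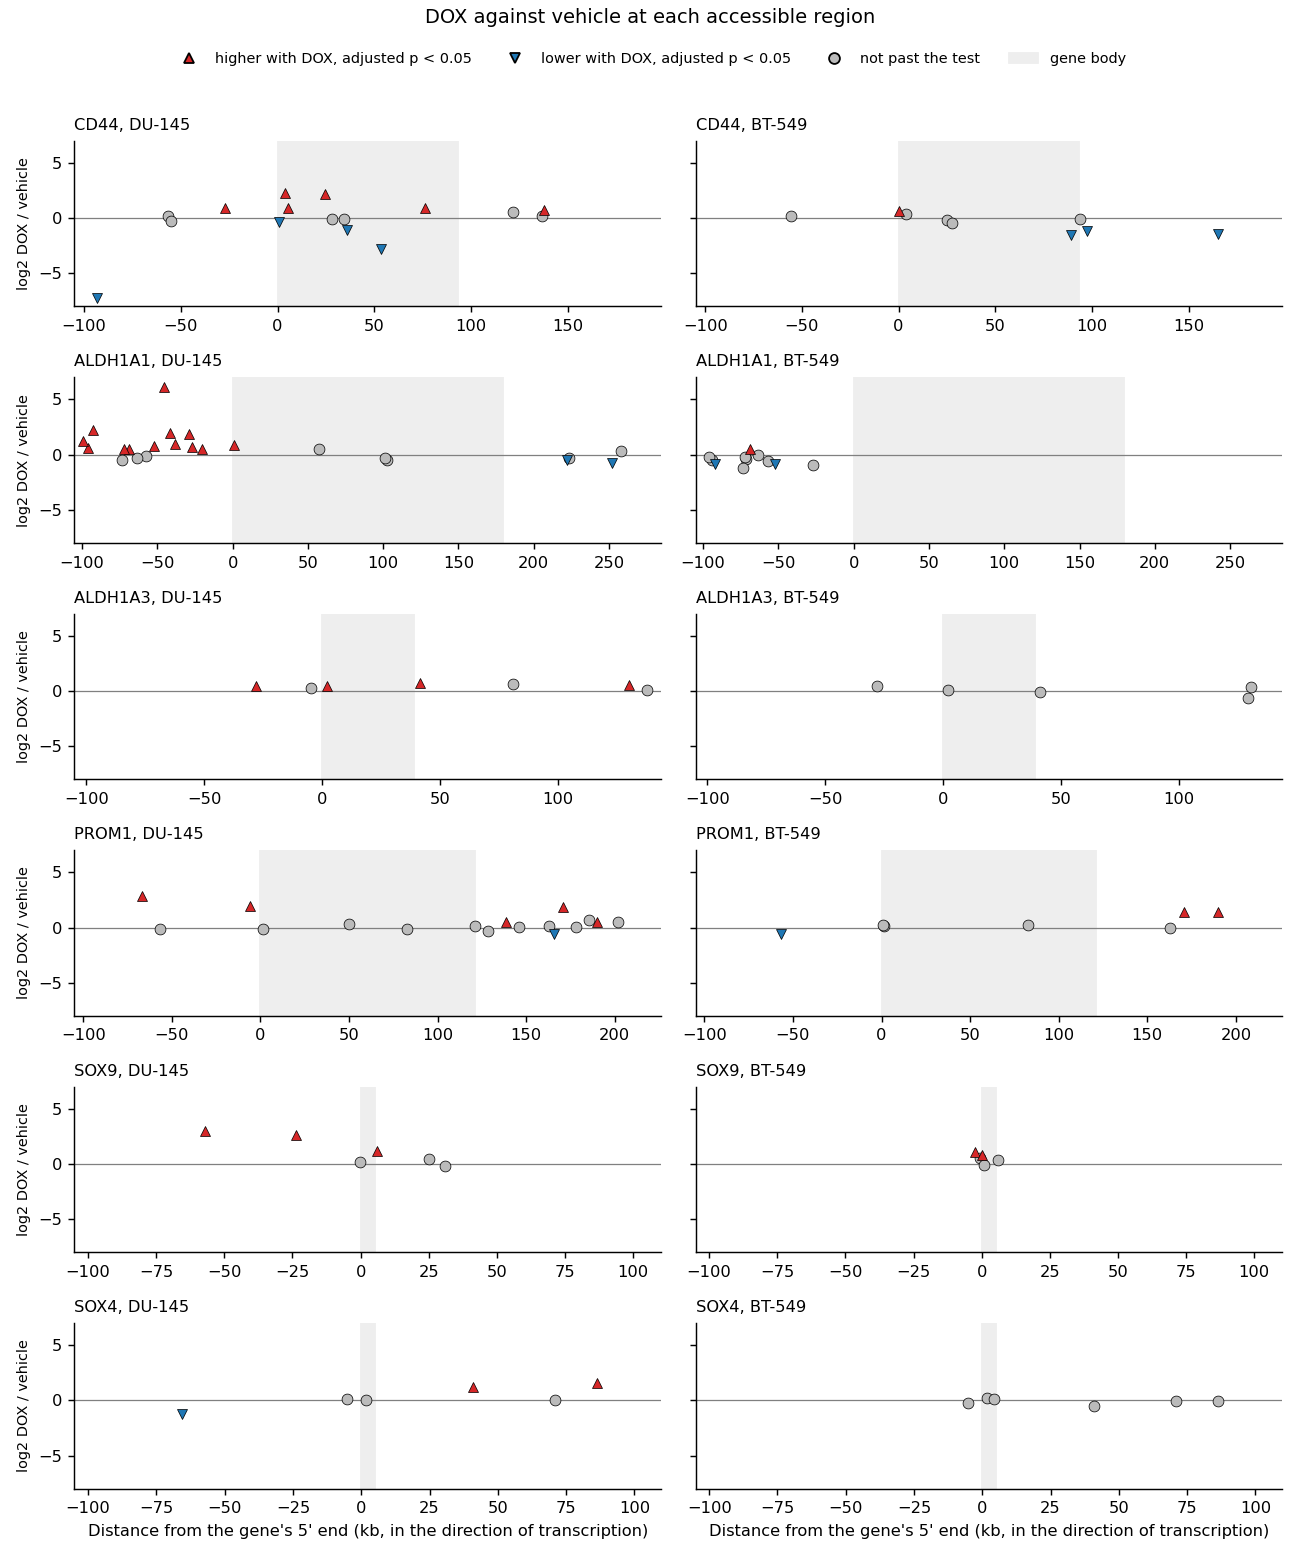
Log2 difference in accessibility (DOX minus vehicle, edgeR) of each accessible region in the windows of the 6 genes, against its distance from the gene's start in kb, in DU-145 and BT-549, with red triangles for regions that rose, blue ones for regions that fell and grey circles for those that did not pass. The 75 DU-145 regions lie mostly above 0 (33 rose, 8 fell), and the 43 BT-549 regions lie on both sides of it (6 rose, 6 fell).

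CD44, the hyaluronan receptor, spans chr11:35138882-35232402 on the plus strand (ENSG00000026508). Its window held both kinds of change in DU-145, with 2 opening and 2 closing regions of 16, and 3 closing regions of 9 in BT-549. The promoter region is shown first, because it moved in opposite directions in the lines, then a distal region that was nearly lost in DU-145 and an intronic one that opened. The promoter is the RefSeq reference sequence on the plus strand from 250 bases before to 50 bases after the start, and the distal and intronic sequences are the 200 bases of the plus strand of GRCh38 around the highest bin.
CD44 RefSeq promoter, chr11:35138921-35139220: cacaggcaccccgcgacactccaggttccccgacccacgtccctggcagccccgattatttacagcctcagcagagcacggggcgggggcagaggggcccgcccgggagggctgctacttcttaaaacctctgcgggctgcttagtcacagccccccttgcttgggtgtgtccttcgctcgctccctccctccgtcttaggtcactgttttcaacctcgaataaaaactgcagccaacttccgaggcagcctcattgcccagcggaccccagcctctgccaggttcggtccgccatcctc
CD44 distal region that closed, chr11:35045551-35045750: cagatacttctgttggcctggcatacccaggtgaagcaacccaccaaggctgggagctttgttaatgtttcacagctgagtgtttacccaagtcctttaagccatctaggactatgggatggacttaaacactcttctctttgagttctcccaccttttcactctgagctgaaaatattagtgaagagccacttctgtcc
CD44 intronic region that opened, chr11:35163251-35163450: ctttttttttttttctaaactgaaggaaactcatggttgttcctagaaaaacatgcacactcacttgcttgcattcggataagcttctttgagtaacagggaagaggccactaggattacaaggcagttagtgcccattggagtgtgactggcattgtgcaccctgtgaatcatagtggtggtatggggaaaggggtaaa
None of these holds TGACTCA on either strand, the AP-1 motif that capitals mark in the sequences given for the other genes. The promoter has 18 CG dinucleotides, where the median of all RefSeq promoters is 14.

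The CD44 promoter region of DU-145, chr11:35138501-35140300, held 18.5, 21.7 and 18.0 CPM with vehicle and 13.2, 18.5 and 14.0 CPM with DOX. The DOX libraries were lower on average, but DOX replicate 2 lay within the vehicle range. The log2 difference was -0.35 (SE 0.14, edgeR adjusted p = 0.0304). The call was lost with the highest bin of the region in place of its sum, at -0.09, and without vehicle replicate 2, DOX replicate 1 or DOX replicate 3, at -0.25, -0.26 and -0.28. In BT-549 the promoter region, chr11:35138501-35139800, held 16.6, 21.2 and 15.2 CPM with vehicle and 27.9, 30.9 and 23.2 CPM with DOX. Every DOX library was above every vehicle library, and accessibility relative to the library's sum rose by 0.62 on the log2 scale (SE 0.20, edgeR adjusted p = 0.0188). The deposited peaks there had a lower fold over their surroundings with DOX, 9.51, 11.2 and 7.76 against 11.4, 13.8 and 11.0 with vehicle. The part of depth in this was not tested. Without vehicle replicate 1, vehicle replicate 3 or DOX replicate 2 the difference was 0.57, 0.53 and 0.52 and no longer passed, and with the GC trend removed it was 0.50 and did not pass. The DOX effects of the lines on the bins they share differed by -0.90 (DU-145 minus BT-549, interaction adjusted p = 0.00272 in edgeR).

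The closing region at chr11:35045401-35046000 lies 92882 bp upstream of CD44, in an intron of the noncoding gene ENSG00000289526, and its nearest coding start is that of PDHX, 60768 bp away. It held 8.86, 8.18 and 8.51 CPM with vehicle and 0.0943, 0 and 0.0247 CPM with DOX. Summed over the libraries, the bin values were 424 with vehicle and 2 with DOX, a 264-fold lower level in CPM (95% interval 72.8 to 2190, counting error only). The fitted log2 difference was -7.28 (SE 0.41, edgeR adjusted p = 1.91e-16), a value that depends on the prior count. All 3 vehicle libraries had a deposited peak there, no DOX library had one, and neither did any BT-549 library. With no DOX peak the region was listed only because all 3 vehicle libraries had one, so these counts add no support. Within a CD44 intron, chr11:35162901-35163700 held 1.23, 1.06 and 2.07 CPM with vehicle and 6.36, 6.54 and 6.32 CPM with DOX, 2.2 higher on the log2 scale (SE 0.25, edgeR adjusted p = 3.51e-09). The groups did not overlap at either region. The other opening and closing calls at CD44 in DU-145, named after their values were seen, were chr11:35142401-35143000, which opened (2.26), and chr11:35192401-35192700, which closed (-2.82). Of the rest, 4 rose by 0.77 to 0.96, 1 fell (-1.077) and 6 did not pass, with differences from -0.30 to 0.58.

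In BT-549 the 3 closing regions lay at the 3′ end of CD44 and beyond it. The one with the smallest adjusted p, the intronic chr11:35227401-35228200, held 9.24, 9.75 and 8.15 CPM with vehicle and 3.79, 2.52 and 3.41 CPM with DOX, and fell by 1.49 on the log2 scale (SE 0.34, edgeR adjusted p = 0.00137). All 3 vehicle libraries and no DOX library had a peak there, a comparison in which the DOX libraries are also the shallowest. The region was listed only through those vehicle peaks, so the peak counts add no support. The other two, named after their values were seen, began at chr11:35236001 (-1.17) and, in an intron of SLC1A2, at chr11:35303701 (-1.48). None of the 3 had a peak in any DU-145 library or a bin in the DU-145 table. The 5 BT-549 regions of CD44 that did not pass differed by -0.43 to 0.35.

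Summed over the whole window, CD44 held 77.1, 77.2 and 74.2 CPM with vehicle and 79.3, 87.0 and 80.3 CPM with DOX in DU-145, a log2 difference of 0.11 (SE 0.07, edgeR adjusted p = 0.181). The closing distal region sits in this sum beside the opening ones. With 50 kb in place of 100 kb on each side, the difference was 0.31 and passed (edgeR adjusted p = 0.000878). That smaller window leaves out the closing distal region and also the DU-145 regions beginning at chr11:35082101 and chr11:35083801. The part of each in the change was not tested. In BT-549 the sums were 142.2, 153.2 and 140.8 CPM with vehicle and 125.0, 161.2 and 125.0 CPM with DOX, and the groups overlapped (-0.09, edgeR adjusted p = 0.48).

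**Figure D2:**
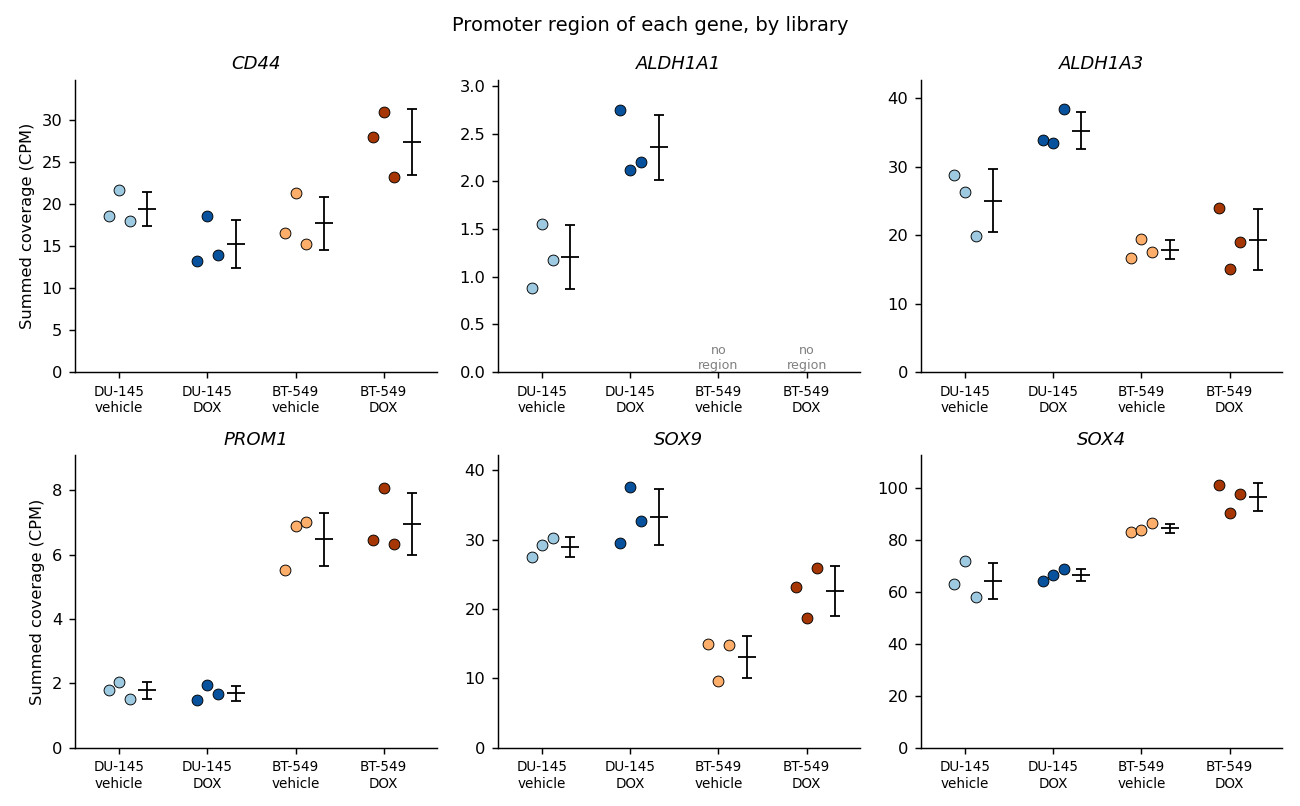
Promoter accessibility (CPM) of the 6 genes in each library, vehicle and DOX, in DU-145 and BT-549, with a point per library and the group mean ± SD beside the points. CD44 lies lower with DOX in DU-145 (-0.35) and higher in BT-549 (0.62), and regions differ in width between lines, so levels compare within a line only. The ALDH1A1 panel shows the intronic region near an annotated start other than the RefSeq one. The DU-145 values of the PROM1 panel are also from an annotated start other than the RefSeq ones.

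PROM1 (CD133) runs from chr4:15963076-16084378 on the minus strand (ENSG00000007062). Its promoter did not pass the test in either line, while a region downstream of the gene opened in both. The sequence of that region is shown because it is the member region called opening in DU-145 and BT-549 alike, and both tables put the highest bin in the same place (200 bases, plus strand, GRCh38). The promoter shown is the RefSeq start of PROM1 with most bins in the BT-549 table, on the minus strand.
PROM1 downstream region that opened, chr4:15913751-15913950: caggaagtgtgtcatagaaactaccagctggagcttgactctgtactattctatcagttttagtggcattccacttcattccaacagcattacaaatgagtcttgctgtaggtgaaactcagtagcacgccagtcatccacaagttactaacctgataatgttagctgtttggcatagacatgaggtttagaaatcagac
PROM1 RefSeq promoter, chr4:16083287-16083586: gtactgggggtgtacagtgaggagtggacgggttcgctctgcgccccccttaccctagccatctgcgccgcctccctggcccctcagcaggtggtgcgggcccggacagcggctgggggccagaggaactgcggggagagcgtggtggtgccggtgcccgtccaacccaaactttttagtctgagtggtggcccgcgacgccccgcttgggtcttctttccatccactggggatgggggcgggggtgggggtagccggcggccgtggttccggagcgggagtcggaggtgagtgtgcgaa
This promoter overlapped 3 bins of the BT-549 table and a peak in all 3 vehicle BT-549 libraries, but no bin of the DU-145 table and no DU-145 peak.

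The downstream region lies 48976 bp past the end of PROM1, and the start of FGFBP1, which encodes a carrier protein of fibroblast growth factors, is the nearest coding one at 24640 bp. In DU-145, chr4:15913301-15914100 held 4.58, 3.96 and 5.85 CPM with vehicle and 17.8, 16.0 and 16.7 CPM with DOX, a rise of 1.84 (log2, SE 0.16, edgeR adjusted p = 1.53e-11). In BT-549, chr4:15913401-15914000 held 7.01, 4.65 and 4.18 CPM with vehicle and 14.4, 17.2 and 11.5 CPM with DOX, a rise of 1.42 (SE 0.29, edgeR adjusted p = 0.000408). The groups did not overlap in either line, and all 12 libraries had a peak there. The DOX effects of the lines differed by 0.42 (SE 0.32, interaction adjusted p = 0.301 in edgeR), which does not show that they were alike. The other BT-549 opening region began at chr4:15894001 (1.41, edgeR adjusted p = 0.000483), and the other DU-145 ones, named after their values were seen, at chr4:16090001 (1.93) and chr4:16150801 (2.85). Of the remaining PROM1 regions of DU-145, 2 rose, both by 0.51, 1 fell by 0.58 and 11 did not pass (-0.29 to 0.65), and of those of BT-549, 1 fell by 0.59 and 4 did not pass (-0.07 to 0.27).

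At the promoter, the DU-145 region chr4:16082401-16083000 held 1.81, 2.03 and 1.51 CPM with vehicle and 1.47, 1.93 and 1.66 CPM with DOX, a log2 difference of -0.09 that became 0.03 without vehicle replicate 2 (edgeR adjusted p = 0.808 with all libraries). This DU-145 region covers an annotated start other than the RefSeq ones, whose promoters overlapped no bin and no peak of DU-145. The BT-549 promoter region held 5.54, 6.89 and 7.01 CPM with vehicle and 6.45, 8.08 and 6.33 CPM with DOX (0.12, edgeR adjusted p = 0.813), and the groups overlapped in both lines. The whole window rose in DU-145, from 153.7, 151.0 and 165.2 CPM to 191.0, 171.6 and 185.4 CPM (0.22, SE 0.06, edgeR adjusted p = 0.0025). The gene body alone, with 1 kb on each side, differed by -0.04 there. In BT-549 the window held 74.6, 80.0 and 70.8 CPM with vehicle and 71.1, 94.4 and 84.6 CPM with DOX (0.15, edgeR adjusted p = 0.33).

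ALDH1A1, a retinaldehyde dehydrogenase, is annotated at chr9:72900671-73080442 on the minus strand (ENSG00000165092) and had the most regions of the 6 genes, 23 in DU-145 and 11 in BT-549. In DU-145 13 of the 23 rose, 3 of them as opening regions, and 2 fell. The promoter at its RefSeq start, chr9:72953004-72953303, overlapped no bin of either table and no peak of the 12 libraries. Sequences are given for the region that went from almost no signal to an accessible one with DOX and for an opening region with a pair of AP-1 motifs (TGACTCA on either strand, in capitals), the latter chosen after its values were seen (200 bases each, plus strand, GRCh38).
ALDH1A1 region gained with DOX, chr9:73125751-73125950: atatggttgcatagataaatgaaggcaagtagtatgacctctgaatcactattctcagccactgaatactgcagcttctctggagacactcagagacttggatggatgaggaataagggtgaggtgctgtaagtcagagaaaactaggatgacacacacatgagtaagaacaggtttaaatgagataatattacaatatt
ALDH1A1 region with AP-1 motifs, chr9:73179651-73179850: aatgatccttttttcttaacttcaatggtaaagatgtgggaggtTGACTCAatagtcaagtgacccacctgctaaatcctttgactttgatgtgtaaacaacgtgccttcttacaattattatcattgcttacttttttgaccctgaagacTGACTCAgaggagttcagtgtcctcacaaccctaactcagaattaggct

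The gained region of DU-145, chr9:73125601-73126000, lies 45159 bp upstream of the most distant annotated start of ALDH1A1 and 25865 bp from the start of ANXA1, the gene of the phospholipid-binding protein annexin A1. It held 0, 0.0721 and 0.0348 CPM with vehicle and 3.20, 3.14 and 3.33 CPM with DOX. The summed bin values were 2 with vehicle and 202 with DOX, an 81.0-fold higher level in CPM (95% interval 22.1 to 673, counting error only), and the fitted log2 difference was 6.12 (SE 0.54, edgeR adjusted p = 1.3e-11). No vehicle library and all 3 DOX libraries had a peak, without which the region would not have been listed, so the peak counts add no support. The region with the AP-1 motifs, chr9:73179301-73180200, held 7.14, 6.45 and 6.74 CPM with vehicle and 15.3, 15.2 and 17.1 CPM with DOX, with no overlap (1.23, edgeR adjusted p = 1.22e-08). Of the 12 DU-145 regions of this window whose nearest coding start is that of ANXA1, 9 rose, among them all 3 opening ones. Of the 4 on the side of TMC1, 2 fell, one of them chr9:72827801-72829100, from 21.9, 22.9 and 21.0 CPM to 14.2, 11.8 and 12.2 CPM (-0.79). Among the 13 that rose, those beginning at chr9:73172901 (2.27) and chr9:73109101 (1.84) were past 2-fold but outside the adjusted p for an opening region, and the 8 that did not pass differed by -0.51 to 0.47. In BT-549 all 11 regions lay upstream of the gene, where 1 rose (0.51), 2 fell (both -0.86) and the 8 that did not pass differed by -1.24 to -0.07.

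The nearest region to an annotated start of ALDH1A1 in DU-145 was the intronic chr9:73079201-73079600, 795 bp from an annotated start, with 0.882, 1.55 and 1.18 CPM with vehicle and 2.75, 2.12 and 2.21 CPM with DOX. It rose by 0.91 (log2, SE 0.30, edgeR adjusted p = 0.0111) with no overlap, but did not pass with RLE size factors (0.67), with the GC trend removed (0.27), with the highest bin (0.67) or without vehicle replicate 1 (0.73). BT-549 had no promoter region for ALDH1A1. The window sums of DU-145 went from 158.5, 170.1 and 171.9 CPM to 224.7, 203.8 and 211.8 CPM, a rise of 0.35 (SE 0.06, edgeR adjusted p = 1.47e-05), while the gene body alone differed by -0.0049. The BT-549 sums went from 111.1, 96.4 and 118.7 CPM to 89.2, 83.4 and 95.3 CPM, each DOX library below each vehicle library. This fall of 0.28 on the log2 scale (SE 0.11, edgeR adjusted p = 0.0369) did not pass without vehicle replicate 1 (-0.26), vehicle replicate 3 (-0.21), DOX replicate 1 (-0.28) or DOX replicate 2 (-0.23).

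ALDH1A3, the other retinaldehyde dehydrogenase, spans chr15:100877714-100916626 on the plus strand (ENSG00000184254). None of its regions differed 2-fold in either line, so no sequence is shown for it, but 4 of 7 rose in DU-145. Its DU-145 promoter region, chr15:100879001-100880300, held 28.8, 26.4 and 19.9 CPM with vehicle and 34.0, 33.4 and 38.4 CPM with DOX, every DOX library higher (0.49, SE 0.11, edgeR adjusted p = 0.000404). With RLE size factors the difference was 0.24 and did not pass. The strongest change of the window, named after its values were seen, was at chr15:100917701-100920400, over the starts of ALDH1A3-AS1 and of LRRK1, a kinase gene, where 34.1, 36.7 and 30.3 CPM with vehicle became 52.0, 53.6 and 59.5 CPM with DOX (0.70, edgeR adjusted p = 8.94e-08). The window sum rose from 111.4, 110.0 and 94.4 CPM to 150.7, 150.3 and 167.2 CPM (0.56, SE 0.07, edgeR adjusted p = 4.19e-07), the largest window difference of the 6 genes in DU-145. Of the remaining regions 2 rose, by 0.45 and 0.56, and 3 did not pass (0.12 to 0.66).

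In BT-549 0 of the 5 ALDH1A3 regions passed with edgeR (-0.65 to 0.44), 0 had an unadjusted p below 0.05 and 0 passed with DESeq2. The promoter held 16.7, 19.5 and 17.5 CPM with vehicle and 24.0, 15.1 and 18.9 CPM with DOX, DOX replicate 1 highest and DOX replicate 2 lowest of all 6 libraries (0.12, edgeR adjusted p = 0.715). Its sign turned with the GC trend removed (-0.14) and without DOX replicate 1 (-0.05). The window held 71.7, 69.7 and 72.4 CPM with vehicle and 74.5, 68.0 and 78.4 CPM with DOX (0.05, edgeR adjusted p = 0.754).

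**Figure D3:**
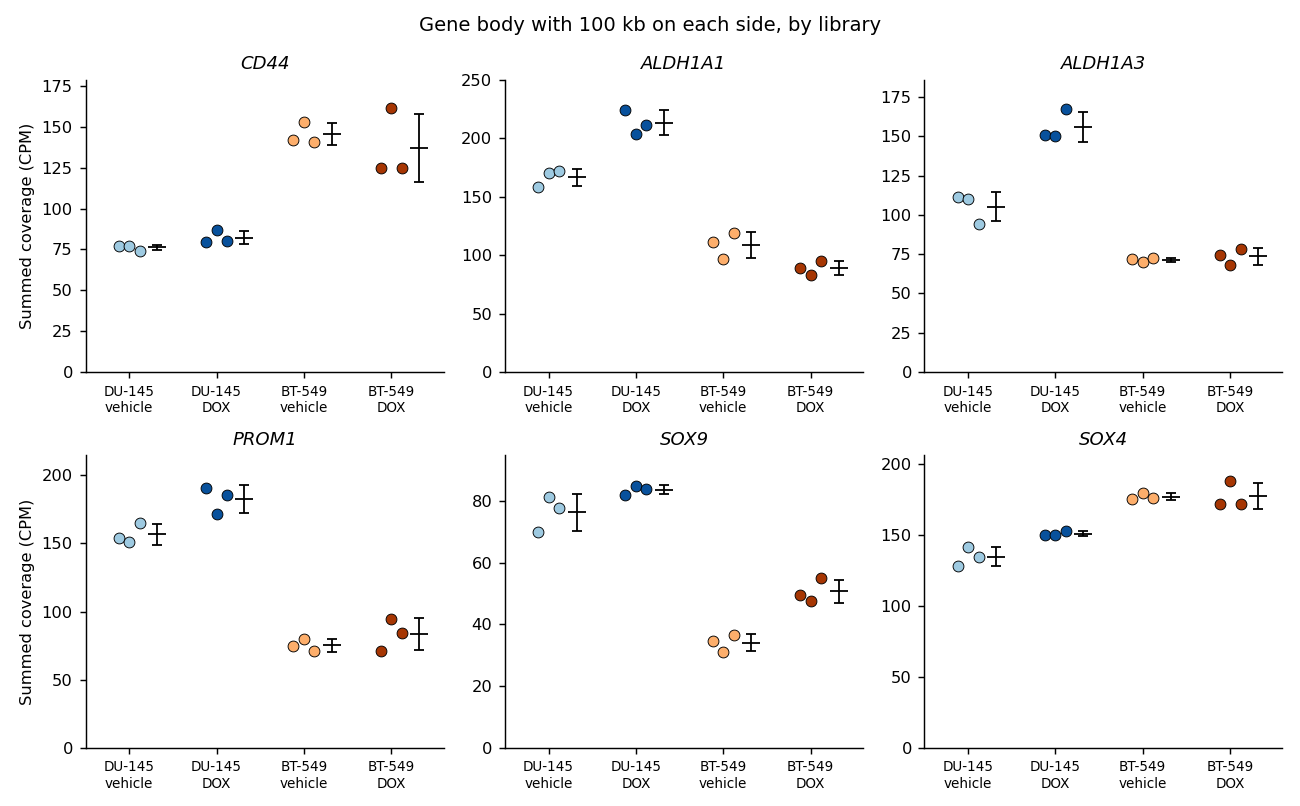
Accessibility summed over each gene's window (CPM) in each library, vehicle and DOX, in DU-145 and BT-549, with a point per library and the group mean ± SD beside the points. In DU-145 the DOX libraries lie above the vehicle libraries at all 6 genes, and the difference passed at ALDH1A1, ALDH1A3, PROM1 and SOX4. In BT-549 SOX9 lies higher (0.58) and ALDH1A1 lower (-0.28) with DOX.

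SOX9, a regulator of cartilage, hair follicle and gland progenitors, lies at chr17:72121020-72126416 on the plus strand (ENSG00000125398). It rose at its promoter in BT-549, and in DU-145 3 of its 6 regions rose, all distal or past the gene's end and none past the study's cutoff. The distal region with the largest evidence in DU-145 is shown because it gained a peak in every DOX library and holds an AP-1 motif (capitals, 200 bases, plus strand, GRCh38).
SOX9 upstream region, chr17:72097251-72097450: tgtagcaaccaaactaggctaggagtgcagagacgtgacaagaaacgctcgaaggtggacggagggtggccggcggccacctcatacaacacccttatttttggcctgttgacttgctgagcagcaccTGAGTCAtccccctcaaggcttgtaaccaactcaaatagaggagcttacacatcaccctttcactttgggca
This region, chr17:72097201-72097500, lies 23520 bp upstream of SOX9 in introns of SOX9-AS1 and LINC02097. It held 0.342, 0.304 and 0.109 CPM with vehicle and 1.79, 1.48 and 1.57 CPM with DOX, and no vehicle library but all 3 DOX libraries had a peak. A region without vehicle peaks is listed only where all 3 DOX libraries have one, so these counts add no support. The log2 difference was 2.60 (SE 0.46, edgeR adjusted p = 1.18e-05), just outside the cutoff of 1e-05 for an opening region. Also outside it were the regions beginning at chr17:72063901 (3.03, edgeR adjusted p = 4.27e-05) and chr17:72126501 (1.17, edgeR adjusted p = 2.25e-05), and the 3 that did not pass differed by -0.21 to 0.46.

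At the SOX9 promoter of BT-549, chr17:72120801-72121700, vehicle libraries held 15.0, 9.65 and 14.8 CPM and DOX libraries 23.1, 18.7 and 25.9 CPM. The groups did not overlap, and accessibility relative to the library's sum rose by 0.80 (log2, SE 0.22, edgeR adjusted p = 0.00774). The call was lost without vehicle replicate 2 (0.61) or DOX replicate 3 (0.68). Deposited BT-549 peaks at this promoter had a lower fold over their surroundings with DOX. Their fold was 21.84, 12.98 and 16.67 with vehicle and 7.832, 12.53 and 11.9 with DOX. The part of depth in this was not tested. The DU-145 promoter region, chr17:72119701-72122200, held 27.4, 29.3 and 30.3 CPM with vehicle and 29.5, 37.6 and 32.7 CPM with DOX. DOX replicate 1 lay within the vehicle range, and the difference of 0.20 (edgeR adjusted p = 0.0973) became -0.04 with RLE size factors and -0.08 with the highest bin, and passed without DOX replicate 1 at 0.28. A small BT-549 region at chr17:72118501-72118800 held 1.97, 2.51 and 2.31 CPM with vehicle and 4.76, 5.15 and 4.33 CPM with DOX (1.05, SE 0.38, edgeR adjusted p = 0.038), and this call was lost on leaving out any one of the 6 libraries.

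The SOX9 window of BT-549 rose from 34.7, 31.0 and 36.6 CPM to 49.4, 47.5 and 55.0 CPM, with all DOX libraries above all vehicle libraries (0.58, SE 0.14, edgeR adjusted p = 0.00162). In DU-145 the sums were 69.8, 81.4 and 77.6 CPM with vehicle and 82.0, 84.8 and 84.0 CPM with DOX (0.13, edgeR adjusted p = 0.127).

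SOX4, a transcription factor tied to epithelial-mesenchymal transition, is a single-exon gene at chr6:21593751-21598619 on the plus strand (ENSG00000124766). The regions that opened near it in DU-145 lay downstream, and 0 of its 6 regions passed with edgeR in BT-549 (-0.52 to 0.20), where 0 had an unadjusted p below 0.05 and 1, the promoter, passed with DESeq2. The downstream region is shown because its DOX effect differed between the lines (200 bases, plus strand, GRCh38, no AP-1 motif).
SOX4 downstream region, chr6:21634651-21634850: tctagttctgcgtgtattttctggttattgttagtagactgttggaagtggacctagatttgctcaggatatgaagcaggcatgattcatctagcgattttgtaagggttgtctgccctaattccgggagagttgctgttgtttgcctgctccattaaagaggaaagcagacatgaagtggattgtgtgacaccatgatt
In DU-145, chr6:21634401-21635200, 35782 bp past the gene, held 4.76, 4.26 and 5.28 CPM with vehicle and 11.1, 9.79 and 11.7 CPM with DOX (1.20, SE 0.17, edgeR adjusted p = 3.91e-07). On the bins shared by both lines the DU-145 values went from 4.05, 3.66 and 4.40 CPM to 9.86, 8.41 and 9.92 CPM, and the BT-549 values were 9.87, 8.68 and 6.89 CPM with vehicle and 8.39, 5.89 and 3.81 CPM with DOX. DU-145 groups did not overlap and BT-549 groups did, and the DOX effects differed by 1.76 (DU-145 minus BT-549, interaction adjusted p = 8.29e-05 in edgeR).

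The other opening region of the SOX4 window in DU-145, chr6:21679701-21680300 in an intron of the noncoding gene CASC15, differed by 1.55. The region that fell, chr6:21527801-21528100, held 1.89, 1.18 and 1.67 CPM with vehicle and 0.827, 0.486 and 0.707 CPM with DOX (-1.21, SE 0.39, edgeR adjusted p = 0.00824), and without DOX replicate 2 the difference was -0.98 and did not pass. The promoter, the widest of the 6, held 63.2, 71.9 and 58.2 CPM with vehicle and 64.3, 66.5 and 68.9 CPM with DOX in DU-145. The groups overlapped, and the difference of 0.04 (edgeR adjusted p = 0.696) turned to -0.20 with RLE size factors (adjusted p = 0.0494) and to -0.55 with the highest bin (adjusted p = 0.000118). In BT-549 the promoter held 83.1, 84.1 and 86.5 CPM with vehicle and 101.4, 90.7 and 97.8 CPM with DOX, every DOX library higher (0.20, edgeR adjusted p = 0.164). That difference was 0.30 and passed with RLE size factors, and turned to -0.37 with the highest bin. The BT-549 peaks there had a fold over their surroundings of 36.7, 36.9 and 24.1 with vehicle and 10.6, 11.9 and 9.31 with DOX.

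SOX4 window sums in DU-145 were 128.0, 141.7 and 134.5 CPM with vehicle and 150.3, 150.1 and 152.8 CPM with DOX, with no overlap (0.16, SE 0.06, edgeR adjusted p = 0.0203). This call was lost without vehicle replicate 1 (0.13), vehicle replicate 3 (0.16) or DOX replicate 3 (0.16). In BT-549 the sums were 175.2, 179.6 and 176.4 CPM with vehicle and 171.8, 187.9 and 172.2 CPM with DOX (-0.0006, edgeR adjusted p = 0.997).

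Over the 6 windows, 4 of 6 rose in DU-145 (ALDH1A1, ALDH1A3, PROM1 and SOX4), where 20.9% of the 19296 windows of all coding genes rose and 33.2% fell, and all 6 differences were above 0. In BT-549 1 rose (SOX9) and 1 fell (ALDH1A1), where 23.1% of 18734 windows rose and 16.7% fell. The median over all windows was -0.05 in DU-145 and 0.03 in BT-549. RLE size factors moved the share of rises among all changed windows from 38.6% to 50.6% in DU-145 and from 58.0% to 51.8% in BT-549.

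**Figure D4:**
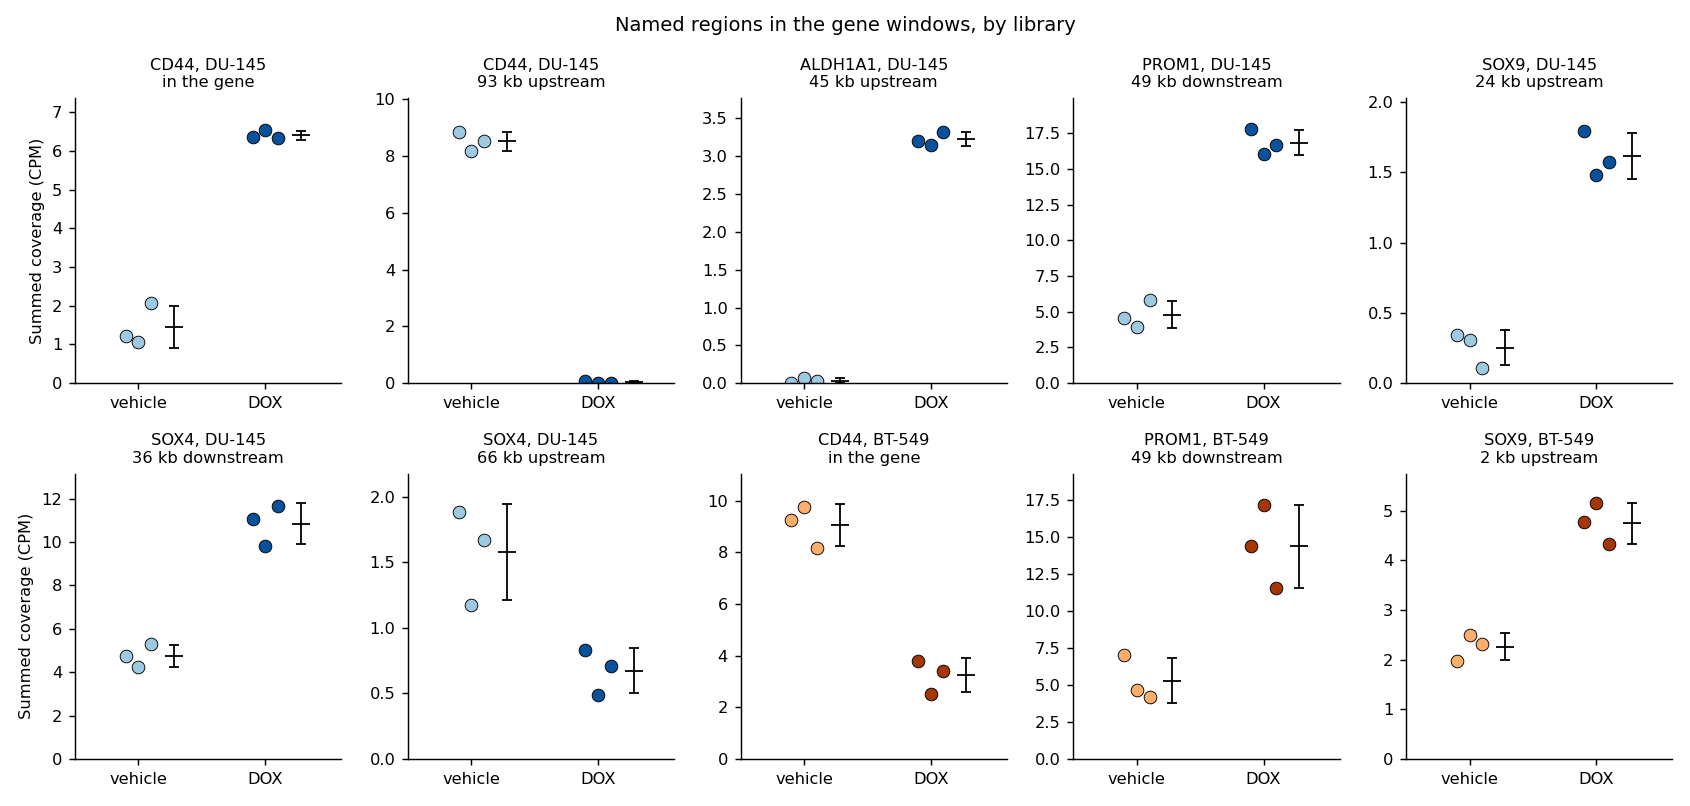
Accessibility (CPM, linear axis from 0, scaled per panel) of the regions named for each gene in each library, vehicle and DOX, with a point per library and the group mean ± SD beside the points. The CD44 region 92882 bp upstream of the gene lies at or near 0 in the 3 DU-145 DOX libraries and the ALDH1A1 gained region in the 3 vehicle libraries.

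Per 100 bp of promoter region, the vehicle level in DU-145 was highest at ALDH1A3 (1.93 CPM, SD 0.35, n = 3) and SOX4 (1.53, SD 0.17), whose ranges overlapped. SOX9 (1.16) and CD44 (1.076) followed with ranges that overlapped each other, and ALDH1A1 (0.301) and PROM1 (0.297) were lowest and could not be separated. For ALDH1A1 the level and the peaks are those near an annotated start other than its RefSeq start, which had no bin and no peak in either line. The DU-145 level and peaks of PROM1 also lie outside its RefSeq promoters, which had no bin and no peak in DU-145. In BT-549 the order was SOX4 (2.11, SD 0.04), ALDH1A3 (1.79), SOX9 (1.46), CD44 (1.36) and PROM1 (0.81), and among these neighbours only the ranges of SOX9 and CD44 overlapped. Deposited peaks gave the same picture of presence. CD44, ALDH1A3, SOX9 and SOX4 had a promoter peak in all 12 libraries. PROM1 had one in all 6 DU-145 libraries but in 3 vehicle and 1 DOX library of BT-549, and ALDH1A1 in 2 vehicle and 3 DOX libraries of DU-145 and none of BT-549.

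The vehicle cells of the lines were compared on the 36 regions of these windows with bins in both tables. BT-549 was at least 2-fold higher at 14 of the 36 (38.9%) and DU-145 at 1 (2.78%), where 31.5% and 8.47% of all 32671 shared regions differed in these directions. The median difference (DU-145 minus BT-549) was -0.43 over the 36 regions and -0.47 over all shared regions, a shift that TMM factors reduced to -0.05. With TMM factors 5 of the 36 were higher in DU-145 and 8 in BT-549, and the share of DU-145 among all such calls moved from 21.2% to 44.1%. The largest difference was upstream of CD44 at chr11:35083801-35084100, with 1.42, 1.495 and 1.09 CPM in DU-145 and 19.8, 19.7 and 18.5 CPM in BT-549 (-3.80, SE 0.22, edgeR adjusted p = 6.94e-19). The only region higher in DU-145, chr15:101008101-101008700 near ALDH1A3, held 16.6, 13.7 and 14.1 CPM against 4.57, 6.09 and 6.53 CPM in BT-549 (1.38, SE 0.19, edgeR adjusted p = 1.71e-08). The groups were fully apart at both.

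At the PROM1 promoter, chr4:16082501-16083000, DU-145 held 1.55, 1.77 and 1.34 CPM and BT-549 3.53, 4.72 and 5.19 CPM (-1.45, SE 0.28, edgeR adjusted p = 1.86e-05). These shared bins lie over an annotated start of PROM1 other than the RefSeq ones. Regions with the smallest adjusted p of the other genes were also higher in BT-549, beginning at chr9:73172901 for ALDH1A1 (-3.42), at chr17:72126601 for SOX9 (-1.59) and at chr6:21679701 for SOX4 (-1.46). The ALDH1A1 region had peaks in all 3 DOX and no vehicle libraries of DU-145, and in all 3 vehicle and no DOX libraries of BT-549. It was thus listed through DOX in DU-145 and through vehicle in BT-549, which favours a higher vehicle level in BT-549. The promoters of CD44 (-0.11, edgeR adjusted p = 0.533), ALDH1A3 (0.44, 0.0078), SOX9 (0.50, 0.00659) and SOX4 (-0.40, 0.000146) differed less than 2-fold. Many regions were listed in 1 line only. Of the 75 DU-145 regions 43 had no bin in the BT-549 table, 36 of which had no peak in any of the 6 BT-549 libraries, and 8 of the 43 BT-549 regions had no bin in the DU-145 table, 7 of them with no DU-145 peak.

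**Figure D5:**
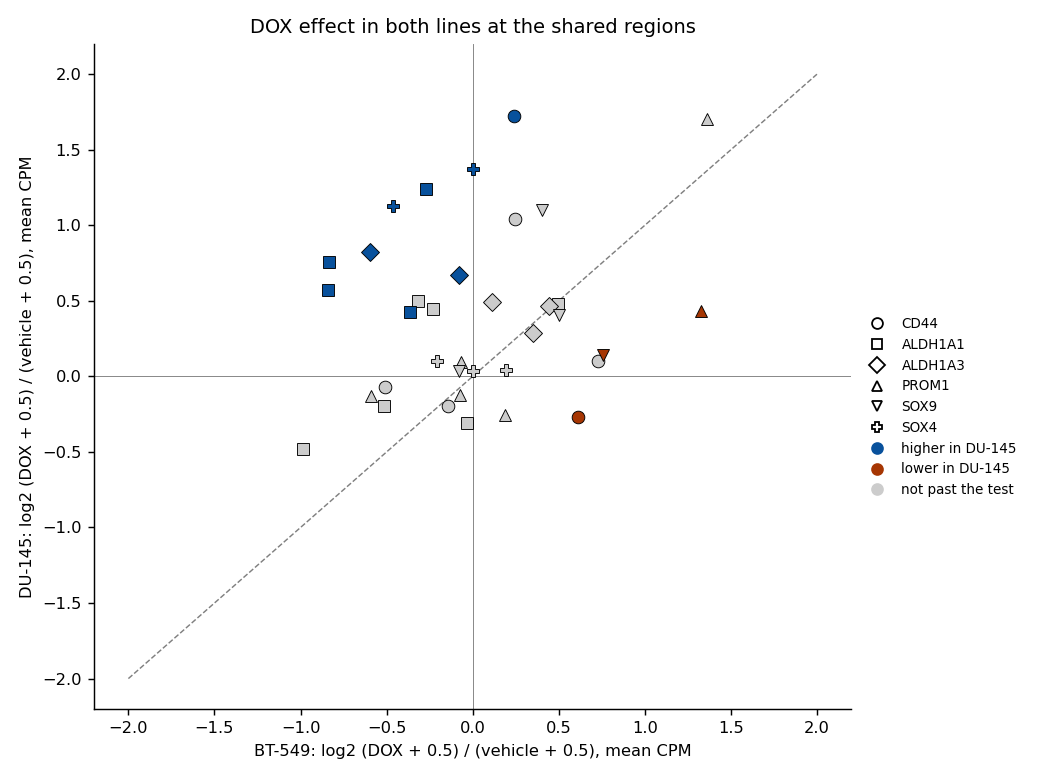
DOX effect in DU-145 (vertical axis) against that in BT-549 (horizontal axis), each the log2 ratio of mean CPM plus 0.5 with DOX to that with vehicle, for the 36 shared regions, with a marker shape per gene and blue or brown for regions that passed the interaction test. The effect was higher in DU-145 at the 9 blue and lower at the 3 brown regions.

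The DOX effect itself was compared between the lines with an interaction term. It was higher in DU-145 at 9 of the 36 shared regions (25%) and lower at 3 (8.33%), where 22.0% and 17.8% of all shared regions passed in these directions. Scaled by the bins shared between the tables, 15 were higher and 2 lower. Of the 10 shared ALDH1A1 regions 4 were higher in DU-145, and the one with the smallest adjusted p was chr9:73132101-73132800. There the DU-145 values went from 6.17, 6.28 and 5.15 CPM to 11.9, 9.43 and 9.45 CPM, and the BT-549 values from 13.5, 11.6 and 13.8 CPM to 6.24, 5.87 and 9.02 CPM. The groups moved apart in opposite directions without overlap, and the effects differed by 1.64 (interaction adjusted p = 3.6e-05 in edgeR). The 3 regions with the lower effect in DU-145 were the promoters of CD44 and SOX9 and the PROM1 region beginning at chr4:15894001. Among the 9 with the higher effect were the CD44 region beginning at chr11:35142501 and the ALDH1A1 region beginning at chr9:73172901. Both had peaks with DOX only in DU-145 and with vehicle only in BT-549, so the listing rule favours a higher effect in DU-145 there.

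Some features of sequence were counted over these regions. AP-1, the dimer of FOS and JUN proteins, binds TGACTCA, and this motif was searched on both strands of the 200 bases around the highest bin. It was present in 20 of the 75 member regions of DU-145, among them 2 of the 10 opening and 0 of the 2 closing ones, where 26.9% of all DU-145 regions, 42.7% of opening ones and 15.3% of closing ones held it. In BT-549 6 of the 43 member regions held it, 1 of the 2 opening and 0 of the 3 closing ones, where the shares over all regions were 14.8%, 20.5% and 24.6%. The opening member regions had a median GC content of 40.2% in DU-145 and 41.5% in BT-549, below the medians of all regions, 47.7% and 51.4%, but the BT-549 median rests on 2 regions. The closing member regions (46.8% and 45.9%) and those called neither way (45.0% and 46.1%) also lay below them.

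Promoters of the genes around these markers' pathways were counted by list. These counts are to be read against all regions, of which 37.1% rose and 17.4% fell in DU-145 and 12.2% and 18.0% in BT-549, with medians of 0.24 and -0.10. All regions include distal ones, and no share over promoters alone was computed. A list's departure from these shares can therefore not be assigned to the list. Of 16 genes of retinoid synthesis and response, the pathway of both aldehyde dehydrogenases, 14 had an accessible promoter in each line. In DU-145 5 rose and 3 fell, with RXRA, a retinoid receptor, at 0.53, RDH10, which makes retinaldehyde, at -0.43 and STRA6, the retinol-uptake receptor, at -0.76 (list median -0.08). In BT-549 3 rose, DHRS3 by 0.44, RXRB by 0.42 and STRA6 by 1.69, from 20.4, 23.1 and 21.0 CPM to 67.1, 77.1 and 63.8 CPM (edgeR adjusted p = 8.25e-10, list median 0.11). The STRA6 promoter regions are different stretches in the lines, chr15:74196101-74196900 in DU-145 and chr15:74200301-74202200 in BT-549, and their values are not set against each other. Among 13 genes of hyaluronan metabolism and CD44 partners, 11 had a promoter region, and in DU-145 2 rose and 6 fell, the smallest adjusted p values being those of the ERM linkers MSN (-0.99) and EZR (-0.69) and of CD74 (-0.72), with a list median of -0.26. In BT-549 1 of the 11 rose, HAS2, a hyaluronan synthase, by 0.35 (list median 0.07). Of 18 other stem cell markers, 3 rose and 4 fell among 16 in DU-145, with NT5E (CD73) at -0.83, CD24 at -0.61 and ITGB1 at -0.42, and 3 rose and 3 fell among 15 in BT-549, with MSI2 at 0.80, BMI1 at 0.67 and THY1 at -0.79 (list medians -0.07 and 0.14). Of 15 other SOX genes, 2 rose and 1 fell among 9 in DU-145 (SOX15 1.26, SOX21 0.58, SOX6 -0.33) and 2 rose among 10 in BT-549 (SOX18 0.73, SOX12 0.45), with list medians of 0.11 and 0.25.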

How the data were processed

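ATAC-seq libraries were mapped by the authors with bwa-mem to GRCh38, duplicates were removed with Picard and peaks were called per library with MACS2 2.2.7.1. The deposited bin tables, 1 per line, hold estimated counts, the mean fragment coverage of 100 bp bins, and are not normalised. In the deposited peak files each peak has a fold (ratio to its surroundings) and -log10 values of its p and q. Here its presence at q below 0.05 was used, and its fold only at the BT-549 promoters of CD44, SOX9 and SOX4. Bins were listed only where the authors kept them, in regions with a peak in at least 3 replicates whatever the condition, and lists differ between the lines.

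Adjacent bins were joined into regions, values were summed per region, divided by the library's sum for CPM, and rounded for the count test, since only 4.22% of the bin values were whole numbers in DU-145 and 6.86% in BT-549. Regions, windows and bins shared by both tables (joined into 32671 regions) were each fitted over all features with edgeR 4.0.16 (robust quasi-likelihood test, library size equal to the column sum, a total of at least 10, Benjamini-Hochberg adjustment) in R 4.3.3. Each line was fitted on its 6 libraries, and the comparison of the lines and the interaction on all 12. Column sums range from 2502510 to 25232000, and intervals on summed values cover counting error only. A promoter region is the region with a bin within 1 kb of an annotated start. Promoter sequences came from RefSeq (GRCh38), which matched 5 of the 6 genes, and none was printed for SOX9.

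Named regions were the promoter and, per gene, line and direction, the 2-fold region with the smallest adjusted p that passed, and for the lines the shared region with the smallest adjusted p in each direction. In each list at most 3 genes per line were named, by the smallest adjusted p at the promoter. The members and lists were chosen with earlier results of these data known. Tried alternatives were TMM, RLE and DESeq2 1.42.0 scaling, loess and GC trends, limma 3.58.1, a replicate block, the highest bin, other windows, cutoffs and filters, and leaving out each library. The scripts were tested on simulated data.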

Additional observations from a re-analysis of the deposited data

Results flagged for a closer look

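Of the 12 shared regions at which the DOX effect differed between DU-145 and BT-549 by an interaction test in edgeR, 7 are given here, those with the smallest adjusted p per gene and direction (difference of the log2 effects, DU-145 minus BT-549, adjusted over 32671 regions). The effect was higher in DU-145 at the CD44 intronic region chr11:35142501-35142900 (1.98, adjusted p = 0.00151) and at the ALDH1A1 region chr9:73132101-73132800 (1.64). It was also higher in DU-145 at the ALDH1A3-AS1 and LRRK1 promoter chr15:100917901-100920000 (0.73, adjusted p = 0.00125) and at the SOX4 region chr6:21634501-21635000 (1.76). A higher effect in BT-549 was seen at the CD44 promoter (-0.90), the PROM1 region chr4:15894001-15894600 (-0.97, adjusted p = 0.0105) and the SOX9 promoter (-0.65, adjusted p = 0.0311). At the ALDH1A1, ALDH1A3-AS1 and SOX4 regions the BT-549 mean fell with DOX and the DU-145 mean rose. The reverse held at the CD44 promoter, and both means rose at the other regions. The PROM1 difference no longer passed without BT-549 DOX replicate 3 (-0.77). The SOX9 difference did not pass when scaled by the shared bins (-0.48), nor without BT-549 DOX replicate 3 (-0.53), BT-549 vehicle replicate 2 (-0.47), DU-145 DOX replicate 1 (-0.56) or DU-145 vehicle replicate 2 (-0.64). The CD44 intronic region had peaks in all 3 DOX and no vehicle libraries of DU-145, and in all 3 vehicle and no DOX libraries of BT-549. It was thus listed through DOX in DU-145 and through vehicle in BT-549, which favours a higher effect in DU-145. The DOX BT-549 libraries had the smallest sums, and the part of depth in these 7 differences was not tested.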

How the results depend on the processing

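The cause of each shift given here was not tested, except where fewer libraries, a smaller window or another cutoff is itself the change. In DU-145, 10 opening regions became 6 with DESeq2, RLE, loess or the GC trend removed and 33 with no fold limit, and 2 closing ones became 4 with the GC trend removed, 1 with 50 kb and 8 with no fold limit. In BT-549, 2 opening regions became 4 as single bins, 1 with 50 kb, 6 with no fold limit and 0 at the adjusted p of DU-145 (a cutoff chosen after seeing the data), and 3 closing ones 0, 6 and 0 with the GC trend, no fold limit and that cutoff. Promoters that rose in DU-145 were 0 with DESeq2 and RLE and 1 with the highest bin, 2 fell with RLE, and 1 rose in BT-549 with the GC trend removed. The fallen BT-549 window was lost with 50 kb and with the gene body (0 each). In the comparison of the lines, TMM and DESeq2 each gave 5 regions higher in DU-145 and 8 higher in BT-549, and 2 were higher in DU-145 scaled by the shared bins, where 15 interaction calls were higher.

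Leaving out 1 library gave 6 to 11 opening and 2 closing regions in DU-145, 2 opening and 0 to 2 closing ones in BT-549, 1 to 3 risen and 0 to 1 fallen promoters in DU-145 (0 fallen without vehicle 2, DOX 1 or DOX 3), 1 to 2 risen promoters in BT-549, 3 to 4 risen windows in DU-145, 0 to 1 fallen windows in BT-549, 1 to 2 regions higher in DU-145 and 12 to 14 in BT-549, and 8 to 12 higher and 2 to 3 lower interaction calls.

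Some signs turned. DU-145 promoters turned at PROM1 without vehicle 2 (0.0269, from -0.212 to 0.0269 over the left-out libraries), at SOX9 with DESeq2 (-0.0393), RLE (-0.0389) and the highest bin (-0.0750), and at SOX4 with DESeq2 (-0.20), RLE (-0.20), TMM (-0.15), the highest bin (-0.55) and without vehicle 3 (-0.0242, from -0.0242 to 0.134). Over the gene body, the DU-145 windows of ALDH1A1 (-0.0049) and PROM1 (-0.0419), which had risen by 0.35 and 0.22, turned. BT-549 promoters turned at ALDH1A3 with the GC trend (-0.14) and without DOX 1 (-0.0532, from -0.0532 to 0.256), at PROM1 with the GC trend (-0.0518) and the highest bin (-0.15), and at SOX4 with the highest bin (-0.37). BT-549 windows turned at ALDH1A3 without DOX 3 (-0.0012, from -0.0012 to 0.102) and at SOX4 with 50 kb (0.0009), the gene body (0.19) and without DOX 1 (0.0202), DOX 3 (0.0212) or vehicle 2 (0.0097), from -0.0432 to 0.0212.

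Replicate numbers shared only a number, since deviations of same-numbered libraries correlated between -0.0221 and 0.0604. With the replicate block 9 opening and 2 closing regions were called in DU-145 and 2 and 2 in BT-549, and of the named regions the call at chr17:72118501 near SOX9 in BT-549 was lost (edgeR adjusted p = 0.0968).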
